A study of Sus scrofa with 14 samples.

Results

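The mitochondrial respiratory chain was represented by 64 genes among the 6765 genes that a single annotated symbol named on the Affymetrix porcine GeneChip. The members were the genes whose symbol begins with NDUF, with SDH followed by A to D, with UQCR, with COX4 to COX8 or with ATP5, together with CYC1, and 82 probe sets carried such a symbol. A gene was read from its brightest probe set over all 14 arrays, so the choice used symbols and the mean level but not the contrast between groups. Complex I had 36 members, complex II 5, complex III 2, complex IV 7 and complex V 14. By textbook role 59 were subunits and 5 were not, namely the assembly factors NDUFAF1, NDUFAF2, NDUFAF3 and SDHAF2 and the coupling factor ATP5S. CYC1, the COX4 isoforms and the subunits encoded by mitochondrial DNA had no probe set with a single symbol and were not analysed here.

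The samples were uterus, frozen at slaughter, from F2 sows of an Iberian by Meishan pig cross, all between day 30 and day 32 of the fifth pregnancy. The labels class 5 sows as highly prolific and 9 as lowly prolific, with 1 array for each sow, and they call the arrays biological replicates. The study set the uterus of the 2 classes of sow side by side. The labels do not give the part of the uterine wall that was taken, so a sample can hold myometrium, endometrium and placental membranes in unknown shares, and fewer cells of a type and less RNA per cell cannot be told apart.

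The respiratory chain sits in the inner mitochondrial membrane. Complexes I and II pass electrons from NADH and succinate to coenzyme Q, complex III passes them on to cytochrome c, and complex IV passes them to oxygen. Complexes I, III and IV pump protons, and complex V, the ATP synthase, lets protons return and makes ATP. The uterus at this stage of pregnancy holds contractile myometrium beside secretory glands.

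Values are log2 levels as deposited, and a difference is the high minus the low prolificacy mean. Across the array, limma called 1885 of the 23999 probe sets tested (7.85%) at an adjusted p of 0.05. Of 19 smooth muscle markers 15 were called lower in high prolificacy, and the mean centred level of that list ran from -2.79 to -0.02 in the high arrays and from 0.57 to 1.62 in the low arrays. Of 17 epithelial markers 8 were called higher, and their mean ran from 0.61 to 1.51 in the high arrays and from -2.52 to 0.35 in the low arrays. High 5 and low 3 stood apart from the other arrays of their groups in the same genes. Array medians ran from 5.73 to 5.84.

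A single member, ATP5A1, the alpha subunit of the catalytic head of ATP synthase, rose in high prolificacy, by 1.33-fold (difference 0.41 ± 0.12 SE, 5 against 9 arrays, limma adjusted p = 0.048). None of the 64 was called lower, so 1 of 64 passed where 10.8% of the 6765 genes did, 5.34% higher and 5.42% lower. That count rested on single arrays. Without high 1, 8 members passed, where 15% of all genes did. Without low 3, 6 passed, where 13.9% did, and without low 4, 3 passed, where 9.22% did, all of them higher. The count was 1 without high 5 (NDUFS1) or low 5 (ATP5A1) and 0 without any other array, beside 3.93% to 7.99% of all probe sets. With 1 probe set per gene tested, 3 members passed, where 13% of genes did. At an unadjusted p of 0.05, 16 members were higher and 1 was lower, beside 15.8% and 11% of all genes. At an adjusted p of 0.10, 8 were higher and 1 was lower, beside 9.02% and 7.64% of all genes. In 0 of the 64 did the groups not overlap, which held for 3.78% of all genes.

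The differences of the members ran from -0.72 for COX7A1 to 0.59 for NDUFA10, and 0 members differed by over 2-fold, beside 9.45% of all genes. The 95% interval of the difference lay within 2-fold, that is within 1 on the log2 scale, for 61 members (95.3%), against 70.1% of all genes. It lay within 1.5-fold for 43 members (67.2%), against 37.6% of all genes. The median size of a member's difference was 0.16 and the median SD within groups 0.24, where all genes had 0.24 and 0.38.

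In sign, 48 members had a higher and 16 a lower mean in high prolificacy, with a median difference of 0.12. Over all genes 60.1% had a higher mean and the median was 0.07. With the smooth muscle and epithelium means as covariates 22 members had a higher mean and the median was -0.06, with 48 of the 95% intervals within 2-fold and 5 within 1.5-fold. In that fit the 2 means accounted for 83.0% of the variation of the group term, so group and means can hardly be told apart, and 0 of 23999 probe sets passed. Without covariates, complex V had 12 of 14 members with a higher mean and a median of 0.15, and complex I 27 of 36 and 0.15. Complex II had 4 of 5 and 0.08, and complex III 2 of 2 and 0.29. Complex IV had 3 of 7 and a median of -0.10, a sign that rested on high 5, since the median was 0.02 without that array.

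**Figure D1:**
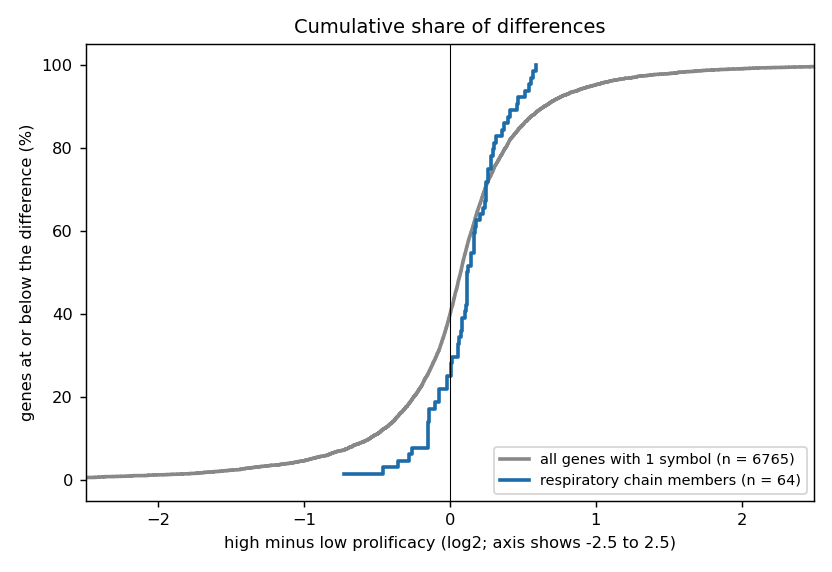
Cumulative share, in percent, of genes at or below each high minus low difference (log2), for the 64 respiratory chain members and for all 6765 genes with a single symbol. The members' curve is steeper and spans -0.72 to 0.59, and the axis is limited to the middle of the wider range of all genes.

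**Figure D2:**
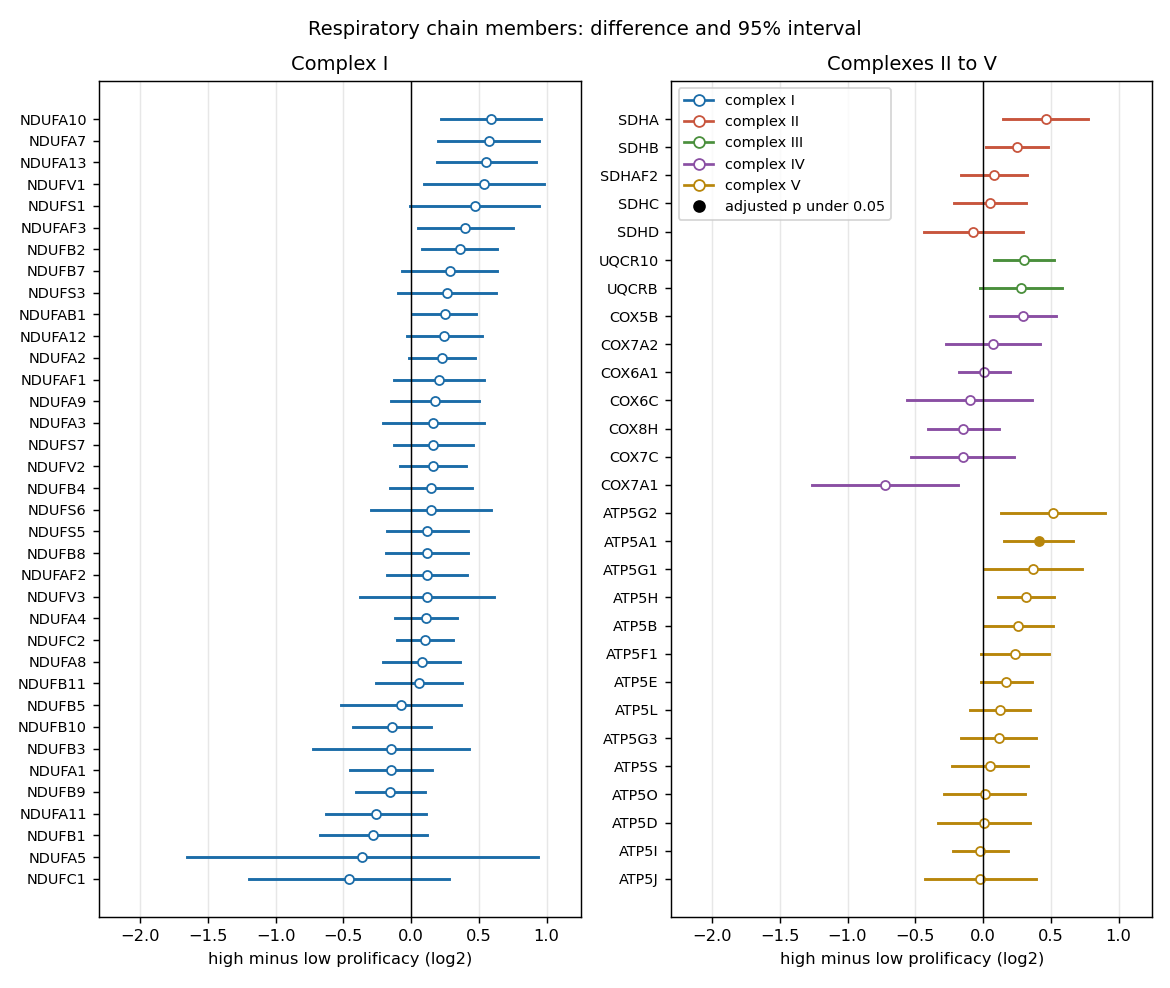
High minus low prolificacy difference (log2) of each of the 64 members, with its 95% interval from limma, ordered by size within complexes I to V. The filled point marks the only member past an adjusted p of 0.05, ATP5A1, and 61 of the intervals lie within 1 of zero.

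Complex V carried the only call. ATP5A1 had log2 levels of 11.36, 11.78, 11.60, 11.71 and 11.59 in high 1 to high 5, and the low arrays ran from 10.95 through a median of 11.16 to 11.51. High 1 was the lowest high array, and low 4 (11.50) and low 5 (11.51) lay above it, while the other 7 low arrays lay below every high array. The means were 11.61 ± 0.16 (SD, n = 5) and 11.20 ± 0.20 (SD, n = 9). When each array was left out in turn ATP5A1 passed in 4 of 14 fits, with the difference between 0.37 and 0.47 and limma's adjusted p between 0.026 and 0.14. It passed without high 1, low 3, low 4 or low 5, and it did not pass with high 5 and low 3 both left out. With the smooth muscle and epithelium means as covariates, the difference was -0.04, in a fit where these means accounted for 83.0% of the variation of the group term.

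The other subunits of the catalytic F1 sector also had higher means, by 0.26 for ATP5B, the beta subunit, 0.17 for ATP5E and 0.01 for ATP5D, and none passed. The sector's median was 0.22 over 4 genes. In the peripheral stalk, which holds the head still against the turning rotor, ATP5H had levels of 10.54, 10.70, 10.75, 10.76 and 10.89 in the high arrays and of 10.16 to 10.65, median 10.40, in the low arrays. Only low 4 lay above the lowest high array, high 1. The difference was 0.32 ± 0.10 SE (limma adjusted p = 0.061). The stalk subunits ATP5F1, ATP5O and ATP5J differed by 0.24, 0.01 and -0.02.

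The membrane ring of c subunits, which turns as protons pass, is made from 3 genes that encode the same mature protein with different import signals. ATP5G2 had levels of 10.23, 10.46, 10.68, 10.33 and 11.07 in the high arrays and of 9.60 to 10.74, median 10.06, in the low arrays. High 5 was the highest high array and low 3 the highest low array, and low 3 was the only low array above high 1. The difference was 0.51 ± 0.18 SE (limma adjusted p = 0.098). When each array was left out in turn ATP5G2 passed in 1 of 14 fits, with limma's adjusted p between 0.022 and 0.24. With high 5 and low 3 both left out, a fit added after seeing the data, the difference was 0.47 and passed (adjusted p = 0.042). ATP5G1 differed by 0.37 ± 0.17 SE (adjusted p = 0.22) and ATP5G3 by 0.11 ± 0.13 SE (adjusted p = 0.70). The remaining complex V members, ATP5L, ATP5I and ATP5S, differed by 0.13, -0.02 and 0.05.

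In complex I no member of the 36 passed an adjusted p of 0.05, and 7 had an unadjusted p under 0.05, all with a higher mean in high prolificacy. The largest difference was that of NDUFA10, an accessory subunit of the membrane arm. Its levels were 7.97, 8.46, 8.18, 8.56 and 8.95 in the high arrays and 7.52 to 8.41, median 7.79, in the low arrays. High 5 and low 3 were the highest of their groups, and low 3, low 4 and low 5 lay above high 1. The difference was 0.59 ± 0.17 SE (limma adjusted p = 0.051). When each array was left out in turn NDUFA10 passed in 2 of 14 fits, with limma's adjusted p between 0.017 and 0.13. With high 5 and low 3 both left out, a fit added after seeing the data, the difference was 0.53 and passed (adjusted p = 0.034).

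NDUFA7, an accessory subunit of the peripheral arm, had levels of 8.44, 8.96, 9.13, 8.91 and 9.41 in the high arrays and of 7.96 to 8.80, median 8.48, in the low arrays. Apart from high 1, every high array lay above every low array. The difference was 0.57 ± 0.17 SE (limma adjusted p = 0.058). NDUFA13, a membrane-arm subunit also known as the cell death regulator GRIM-19, had levels of 10.41, 10.50, 10.55, 10.31 and 11.17 in the high arrays and of 9.62 to 10.56, median 10.02, in the low arrays. Low 3 was the only low array inside the range of the high arrays. The difference was 0.55 ± 0.17 SE (adjusted p = 0.063).

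The 2 arms of complex I can be read side by side. The peripheral arm, which reaches into the matrix and carries the NADH site and the iron-sulfur clusters, had 11 of 12 members with a higher mean and a median of 0.20. NDUFV1, which holds the flavin where NADH binds, differed by 0.54 ± 0.21 SE (adjusted p = 0.14), and NDUFS1, the large iron-sulfur subunit, by 0.47 ± 0.22 SE (adjusted p = 0.25). Without high 5 NDUFV1 differed by 0.34 and NDUFS1 by 0.72, and NDUFS1 was then the only member called, where 7.7% of all genes were. NDUFS3, NDUFA12, NDUFA2, NDUFA9, NDUFV2, NDUFS7, NDUFS6 and NDUFV3 lay between 0.12 and 0.26. NDUFA5 had the lower mean, at -0.36 ± 0.61 SE, with the widest 95% interval of the 64 members (-1.65 to 0.94). Its sign rested on high 5, without which it differed by 0.25 and NDUFV3 by -0.12, which left the count at 11 of 12.

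The membrane arm, which holds the proton pumps, had 11 of 19 members with a higher mean and a median of 0.08. Without high 5 it had 8 of 19 and a median of -0.0067. With high 5 and low 3 both left out it had 13 of 19 and a median of 0.029, and the peripheral arm had 10 of 12 and 0.22. Above zero after NDUFA10 and NDUFA13 came NDUFB2 at 0.36 and NDUFB7 at 0.28, and NDUFA3, NDUFB4, NDUFS5, NDUFB8, NDUFC2, NDUFA8 and NDUFB11 lay between 0.06 and 0.16. NDUFC1 at -0.46, NDUFB1 at -0.28 and NDUFA11 at -0.26 were the lowest, but without high 5 NDUFC1 differed by -0.0087, NDUFB1 by -0.18 and NDUFA11 by -0.38. The members NDUFB9, NDUFA1, NDUFB3, NDUFB10 and NDUFB5 lay between -0.15 and -0.08. Without high 5 NDUFB3 and NDUFB5 differed by 0.17 and 0.16, NDUFA1 by -0.0067, and NDUFB9 and NDUFB10 by -0.24 and -0.20. The difference between the arms was not tested. NDUFAB1, the acyl carrier protein found in both arms, differed by 0.25 ± 0.11 SE (adjusted p = 0.21), and NDUFA4, which is now counted with complex IV, by 0.11 ± 0.11 SE (adjusted p = 0.64). The complex I assembly factors NDUFAF3, NDUFAF1 and NDUFAF2 differed by 0.40, 0.20 and 0.12. NDUFAF1 was the only member whose mean level (5.60) lay under the lowest array median.

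Complex II, which is also an enzyme of the citric acid cycle, showed its larger differences in the catalytic pair. SDHA, the flavoprotein that oxidises succinate, had levels of 9.14, 9.50, 9.53, 9.46 and 9.83 in the high arrays and of 8.67 to 9.53, median 9.11, in the low arrays. High 5 and low 3 were the highest of their groups, and low 3 and low 8 were the low arrays above high 1. The difference was 0.46 ± 0.15 SE (limma adjusted p = 0.072), and a dimmer SDHA probe set differed by 0.33 ± 0.17 SE (adjusted p = 0.28). SDHB, the iron-sulfur subunit, differed by 0.25 ± 0.11 SE (adjusted p = 0.19). The membrane anchors SDHC and SDHD differed by 0.05 ± 0.13 SE and -0.07 ± 0.17 SE. The sign of SDHD rested on high 5, without which it differed by 0.15. Without that array the anchors had a median of 0.11 and the catalytic pair of 0.33. The assembly factor SDHAF2 differed by 0.08 ± 0.11 SE (adjusted p = 0.76).

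Complex III was represented by 2 small subunits. UQCR10 had levels of 9.63, 9.68, 9.84, 9.99 and 9.84 in the high arrays and of 9.31 to 9.77, median 9.56, in the low arrays. Low 3 was the only low array inside the range of the high arrays. The difference was 0.30 ± 0.10 SE (limma adjusted p = 0.094). UQCRB, which lies near the quinone site, differed by 0.28 ± 0.14 SE (adjusted p = 0.29), and the suffix of its probe set marks a design that can match more than 1 transcript. Neither passed, and the catalytic cytochromes and the iron-sulfur protein of the complex were not among the members.

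**Figure D3:**
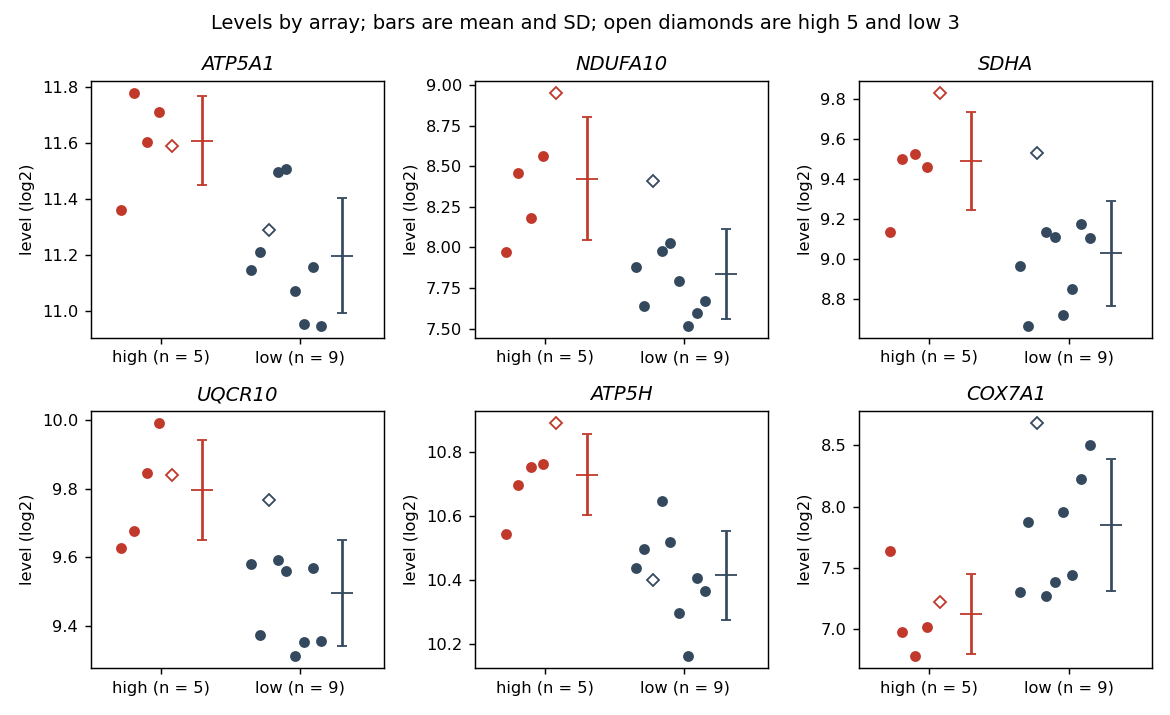
Log2 levels of 6 members in each array, high (n = 5) and low (n = 9) prolificacy, with each group's mean and SD as a bar, and open diamonds for high 5 and low 3. In each panel the groups overlap, and COX7A1 is the only one of the 6 with the lower mean in high prolificacy; each panel has its own axis.

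Complex IV held the member with the largest difference in the other direction. COX7A1, the form of subunit 7a found in heart and skeletal muscle, had levels of 7.64, 6.97, 6.78, 7.02 and 7.22 in the high arrays and of 7.27 to 8.68, median 7.87, in the low arrays. High 1 was the only high array above any low array, and low 3 was the highest of all. The difference was -0.72 ± 0.25 SE (limma adjusted p = 0.097), which did not pass.

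The smooth muscle list differed between the groups in the same direction as COX7A1: its mean centred level was -0.02 in high 1, between -2.79 and -2.16 in the other high arrays, and between 0.57 and 1.62 in the low arrays. Within the low group the highest muscle mean was in low 7 (1.62), where COX7A1 stood at 7.44. Low 4, with 1.17, had the lowest COX7A1 of that group (7.27), and low 8, with 0.78, had 8.23. Low 9 and low 6, with 1.35 and 1.34, had 8.50 and 7.96, and low 5, with the lowest muscle mean (0.57), had 7.38. A relation within the low group was not tested. With the smooth muscle and epithelium means as covariates the COX7A1 difference was -0.04 and did not pass. These means accounted for 83.0% of the variation of the group term, and no probe set passed in that fit. The striated muscle list ran from -0.40 to -0.07 in the high arrays and from -0.21 to 0.41 in the low arrays, with 1 of 16 genes called higher and 2 called lower.

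COX5B, a nuclear-encoded subunit on the matrix side, differed by 0.29 ± 0.11 SE (adjusted p = 0.15). COX6A1, the widely expressed form of subunit 6a, differed by 0.01 with a 95% interval of -0.18 to 0.20, and COX7A2, the widely expressed form of subunit 7a, by 0.07 with an interval of -0.27 to 0.42. COX6C and COX7C differed by -0.10 and -0.15. COX8H, the heart form of subunit 8, differed by -0.15 ± 0.12 SE (adjusted p = 0.56).

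Of 9 pairs of tissue isoforms, 3 had both genes measured, and each was compared within an array, so that a shift shared by the pair cancels. COX7A1 minus COX7A2 averaged -3.36 ± 0.54 (SD) in the 5 high arrays and -2.57 ± 0.80 (SD) in the 9 low arrays (exact two-sided permutation test over 2002 splits, p = 0.073, adjusted over 3 pairs p = 0.11). ATP5G1 minus ATP5G3 averaged -0.94 ± 0.33 in high and -1.20 ± 0.11 in low (exact permutation p = 0.036, adjusted p = 0.11). ATP5G2 minus ATP5G3 averaged -0.64 ± 0.50 and -1.04 ± 0.39 (exact permutation p = 0.12, adjusted p = 0.12). Without high 5 the group difference moved from 0.26 to 0.12 for ATP5G1 minus ATP5G3 and from 0.40 to 0.20 for ATP5G2 minus ATP5G3. These values are differences within arrays and do not rank the 2 transcripts, which different probes measured. No pair passed after adjustment.

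Averaged over the 64 members, the centred level was -0.04, 0.12, 0.13, 0.13 and 0.05 in high 1 to high 5. In the low arrays it ran from -0.12 through a median of -0.08 to 0.14. Low 4 had the highest mean of all 14 arrays, so the groups overlapped, and low 4 and low 5 (0.07) stood above the other 7 low arrays. High 1 was the lowest of its group in 29 of 64 members (45.3%), against 29.9% of all genes. High 1 was also the high array with the highest smooth muscle mean, and whether that bears on its respiratory chain levels was not tested. The trophoblast and fetal membrane list was highest in high 4 (2.68), and low 4 (0.89) had its highest mean among the low arrays. High 1, with the lowest member mean of the high group, had a mean of that list above that of low 4. High 2 and high 3, with member means of 0.12 and 0.13, had the lowest means of that list (-1.02 and -1.03). A relation between that list and the member means was not tested.

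**Figure D4:**
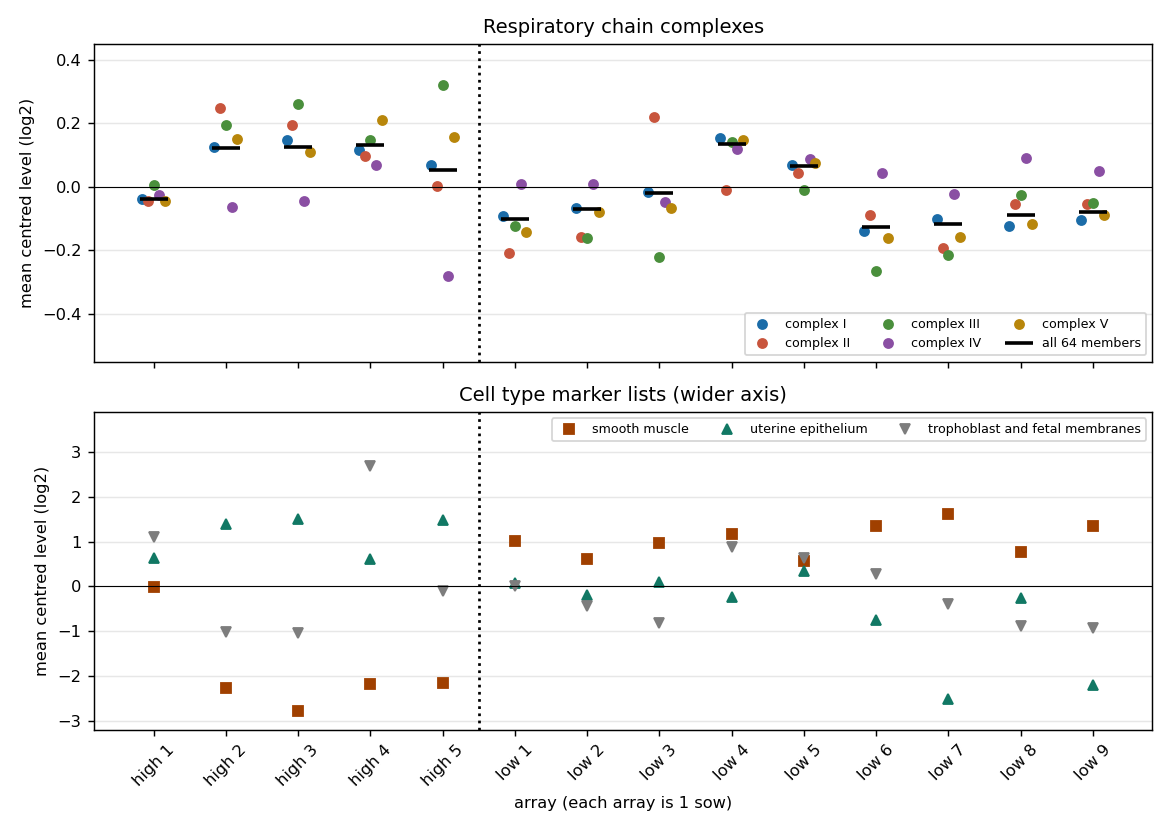
Mean centred log2 level in each array of the members of complexes I to V and of all 64 (bars, upper panel), and of 3 cell type marker lists (lower panel, wider axis). Low 4 lies as high as the high arrays for all members, whose means span -0.12 to 0.14, while the smooth muscle means span -2.79 to 1.62.

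High 5 and low 3 deviated from their own groups in the same members, and this held across all genes too. NDUFA5 stood at 4.65 in high 5 and 4.57 in low 3, while the other 12 arrays lay between 7.58 and 8.02. In 7 members both arrays lay over 0.5 below their group's median (NDUFA5, NDUFC1, NDUFB3, NDUFB5, NDUFS1, COX6C and COX7C). In 6 both lay over 0.5 above it (NDUFV1, NDUFA3, NDUFA13, NDUFB11, NDUFS3 and ATP5G2). No member deviated by over 0.5 in opposite directions. Of all 6765 genes, 868 lay over 0.5 below in both arrays, 912 lay over 0.5 above in both and 42 deviated in opposite directions. Across the 64 members the correlation of the 2 arrays' deviations was r = 0.83, and across all genes, which are not independent replicates, it was 0.73. The mean centred level of the poly-A spike-in controls was 1.63 in high 5 and 0.95 in low 3, above the other arrays (-0.70 to 0.77). The part of these controls in the deviations was not tested. With both arrays left out, a fit added after seeing the data, 4 members were called higher and none lower, where 10.3% of all genes were called. The 4 were ATP5G2, NDUFA10, NDUFA13 and NDUFS1.

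**Figure D5:**
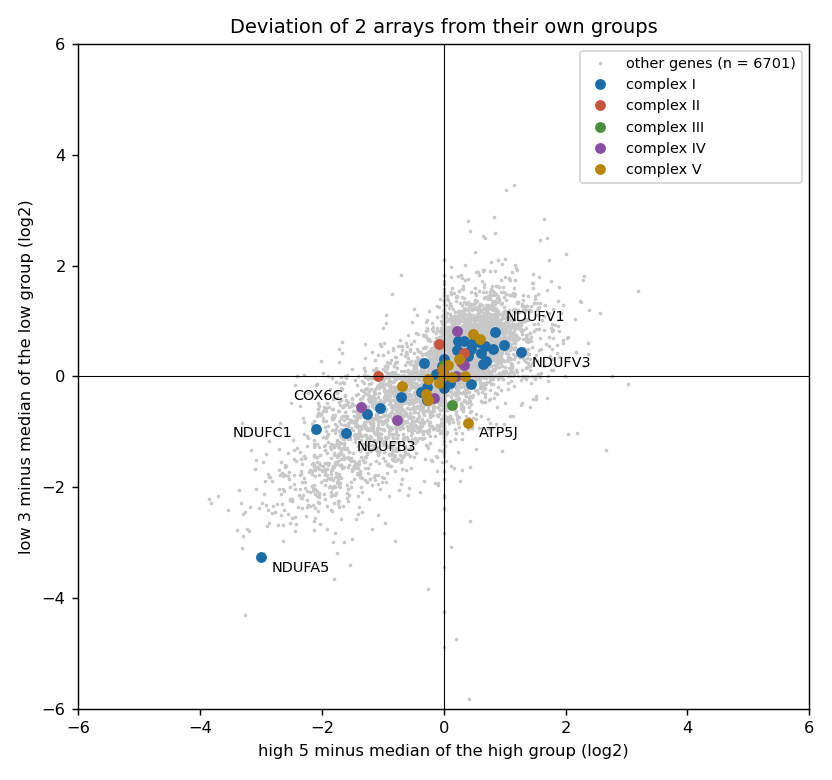
Deviation of low 3 from the low group's median against that of high 5 from the high group's median (log2), with the members coloured by complex and the other genes in grey. The members fall along a rising line, from NDUFA5 at the lower left to NDUFV1 at the upper right. Deviations of over 0.5 in opposite directions were rare in both sets, with 0 of the 64 members and 42 of all 6765 genes.

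Other mitochondrial lists gave a few calls each. Among 19 inner and outer membrane carriers, import factors and chaperones, 4 were called higher and 2 lower (31.6% called, beside 10.8% of all genes), with a median of 0.20. SLC25A4, the ADP/ATP carrier form typical of muscle, fell by 2.06 ± 0.30 SE (limma adjusted p = 0.0013), with every high array below every low array. The other ADP/ATP carriers measured, SLC25A5 and SLC25A6, rose by 0.93 (adjusted p = 0.045) and 0.60 (adjusted p = 0.028). VDAC3, a pore of the outer membrane, fell by 0.89 (adjusted p = 0.0049), also with no overlap, and the related VDAC1 rose by 0.51 (adjusted p = 0.028). PHB2, prohibitin 2, rose by 0.68 (adjusted p = 0.049). SLC25A5, SLC25A6, VDAC1 and PHB2 were named after their values were seen.

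Of 16 citric acid cycle and pyruvate dehydrogenase genes, 1 was called higher and none lower (6.25%), with a median of 0.24. DLST and OGDH, which belong to the same 2-oxoglutarate dehydrogenase, differed by 0.59 (limma adjusted p = 0.025) and 0.57 (adjusted p = 0.058). Of 10 electron carrier and coenzyme Q genes, 2 rose (20.0%): PDSS1, which builds the side chain of coenzyme Q, by 0.98 (adjusted p = 0.017) and COQ9 by 0.52 (adjusted p = 0.035), with a list median of -0.02. Of 16 further assembly factors, 1 rose and 1 fell (12.5%): COX10, which makes the heme precursor of complex IV, rose by 0.88 (adjusted p = 0.032) and TMEM126B, of complex I, fell by 0.38 (adjusted p = 0.037), and the median was 0.00.

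Of 58 mitochondrial ribosomal proteins, 2 were called higher and 1 lower (5.17%), with a median of 0.14; MRPS17 rose by 0.59 (limma adjusted p = 0.032) and MRPL33 fell by 0.95 (adjusted p = 0.028). Of 6 regulators of biogenesis and of mitochondrial DNA upkeep, 1 was called (16.7%): SSBP1, which binds single-stranded mitochondrial DNA, fell by 0.34 (adjusted p = 0.028) with no overlap of the groups. PPARGC1A, the coactivator PGC-1 alpha, differed by 0.94 ± 0.29 SE (adjusted p = 0.063). Of 15 glycolysis and lactate genes, 3 were called higher and 1 lower (26.7%), with a median of 0.49. PFKM, the muscle form of phosphofructokinase, fell by 0.94 (adjusted p = 0.010), with no overlap, and PFKL, the liver form, rose by 1.23 (adjusted p = 0.018). When each array was left out in turn, SLC25A4, VDAC3 and PFKM passed in 14 of 14 fits, PDSS1 in 12, PFKL in 11, DLST, MRPL33 and SSBP1 in 10, MRPS17 in 7, COX10 in 6, TMEM126B in 5 and COQ9 in 4. Among the 2 genes with the smallest p in each list, 6 had a difference of opposite sign with the smooth muscle and epithelium means as covariates. These were PDSS1, COQ9, OGDH, TMEM126B, MRPL33 and PFKL. None of the calls in these lists was kept in that fit, in which 0 of 23999 probe sets passed in limma and 272 had an unadjusted p under 0.05, and in which the 2 means accounted for 83.0% of the variation of the group term.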

How the data were processed

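Log2 levels of 24123 probe sets were deposited for 14 arrays. Per the submitters' processing notes the authors used RMA, and which implementation and version is not given in the sources used here. The method gives arrays the same distribution of probe intensities, so a shift shared by most transcripts would be removed. The 124 Affymetrix controls were left out, and 23999 probe sets were tested. Platform annotation gave 10069 of them 1 symbol, 198 several and 13732 none; 1 ATP5 probe set with several symbols was left out. By gene number, all 64 members were found in RefSeq's table for assembly Sscrofa11.1, where 0 symbols differed. Detection calls were not used, and the number of arrays limits the precision.

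High minus low was fitted with limma 3.58.1 in R 4.3.3 (lmFit, eBayes, two-sided, no covariate, no filter), with Benjamini-Hochberg adjustment over all tested probe sets and a threshold of 0.05. The SE is limma's, the SD is between arrays of a group. The labels call the arrays biological replicates. A centred level is a level minus the gene's mean over all arrays, and a list mean averages these.

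Named genes were called members, the 3 members with the smallest p in each complex, ATP5A1, all members of the isoform pairs and the 2 genes with the smallest p in each other pathway list. Members, lists and tests were chosen with earlier results of these data known, and roles of subunits were assigned from textbook knowledge. The alternatives were the 12000 brightest probe sets, 1 probe set per gene, the mean of a gene's probe sets, subunits only, cyclic loess, array medians subtracted, array weights, the replicate number as a block, trend and robust eBayes, 2 marker list covariates, an adjusted p of 0.10 and leaving out each array; leaving out high 5 and low 3 together was added after seeing the data. The fit was tested on simulated data.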

Additional observations from a re-analysis of the deposited data

Results flagged for a closer look

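In 31 of 174 groups of values examined, over the members, the other named genes, the isoform differences and the members' means by complex and over all, the highest or lowest array stood far from the rest of its group; chance gives about 1 in 20 groups. High 5 accounted for 14 of these and low 3 for 13.

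Both arrays stood apart on the low side in NDUFA5 (4.65 in high 5 and 4.57 in low 3), NDUFC1 (6.87 and 8.25), NDUFB3 (7.26 and 7.74), COX6C (10.35 and 11.06) and COX7C (10.26 and 10.30). Both stood apart on the high side in NDUFA3 (10.55 and 10.07), NDUFB7 (9.65 and 9.10) and ATP5D (9.53 and 9.81). High 5 alone was low in ATP5O (10.23), NDUFA1 (9.23), NDUFB5 (7.98) and SDHD (9.27), and high in NDUFA13 (11.17) and NDUFB8 (10.30). Low 3 alone was high in ATP5G2 (10.74), NDUFA9 (9.14), NDUFS3 (9.26), NDUFV1 (9.11) and PFKL (8.43).

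Of the other 4, NDUFA2 was lowest in high 1 (9.15), where the other high arrays began at 9.51. Low 8 was lowest in COX8H (5.52) and NDUFS6 (6.52), and low 1 in MRPL33 (7.00).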

How the results depend on the processing

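Members called higher numbered 3 under cyclic loess (ATP5A1, ATP5H and NDUFA10), where 11.6% of all genes passed, and 8 under array weights (17.2%). With 1 probe set per gene 3 were called higher (ATP5A1, NDUFA10 and NDUFA7), where 13% of genes passed. With the mean of a gene's probe sets 2 were, where 8.03% of the gene means and remaining probe sets passed. At an adjusted p of 0.10, 8 were higher and 1 was lower, beside 9.02% and 7.64% of all genes. Without high 5 and low 3, 4 were higher (10.3%). With the replicate block (0.15% of probe sets called), trend and robust eBayes (7.50%) or the marker list covariates (0%), 0 were higher. The causes were not tested. Leaving out 1 array gave 0 to 8 members higher and 0 lower. The count was 8 without high 1, 6 without low 3 and 3 without low 4, beside 15%, 13.9% and 9.22% of all genes. It was 1 without high 5 or low 5 and 0 without any other array, beside 3.93% to 7.99% of all probe sets. With the 12000 brightest probe sets NDUFA10 passed in place of ATP5A1, where 14.2% of those probe sets passed. All probe sets called numbered 3060 with array weights, 35 with the replicate block, 0 with the covariates, 2925 at an adjusted p of 0.10, 877 with 1 probe set per gene, and 944 to 2650 with 1 array left out.

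Over those fits the medians ran from 0.13 to 0.18 in complex I, 0.048 to 0.17 in II, 0.26 to 0.33 in III, -0.17 to 0.018 in IV and 0.13 to 0.19 in V, and the isoform differences from -0.96 to -0.63, 0.12 to 0.33 and 0.20 to 0.53. Complex IV was 0.027 without high 5 and low 3. The covariates, which accounted for 83.0% of the variation of the group term, gave medians of -0.056 in I, 0.018 in III and -0.062 in V. Over all 64 members those with a higher mean fell from 48 to 22 with the covariates, and reversals are listed here for the named genes only. Among the named members the covariates reversed ATP5A1 (-0.041), NDUFA7 (-0.18), SDHB (-0.17), SDHAF2 (-0.28), COX5B (-0.17), ATP5H (-0.014), ATP5G2 (-0.067), COX6A1 (-0.12), COX7A2 (-0.15), ATP5G1 (-0.083) and ATP5G3 (-0.098). Among the other named genes they reversed TMEM126B (0.12), PDSS1 (-0.11), COQ9 (-0.062), OGDH (-0.048), MRPL33 (0.48) and PFKL (-0.11). COX6A1 was also reversed by array weights (-0.022), by the block (-0.051) and without high 4 (-0.032), low 7 (-0.0041) or low 9 (-0.012), with 1 array left out giving -0.032 to 0.040; COX7A2 by array weights (-0.0058) and without high 4 (-0.053), with a range of -0.053 to 0.15.

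Replicate numbers did not pair the arrays: same-numbered arrays correlated at -0.25 to 0.42, with 3 of 5 over 0.1, and 1 of 5 correlated best with its own number. In the block fit a low array without a high array of the same number adds nothing to the difference. With the block the isoform differences were -0.58, 0.20 and 0.34.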

Other observations

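Besides the brightest one, 15 members had 18 dimmer probe sets, of which 11 had the same sign and 0 passed in limma. Where the signs differed, the largest gap was in ATP5L, at 0.13 in the brightest probe set and -0.84 ± 0.31 SE in a dimmer one (limma adjusted p = 0.12). NDUFA1 differed by -0.15 in the brightest and by 0.28 in the next, and NDUFS3 by 0.26 and, in its dimmest, by -0.60.

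Low 4 was the highest low array in 18 of 64 members (28.1%), where it was the highest in 6.25% of all genes. Low 7 was the lowest low array in 15 members (23.4%), against 15.5% of all genes.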
